A study of Homo sapiens with 22 samples.

Results

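Of 6825 genes listed in either of 2 deposited tables of glioblastoma RNA-seq, 779 were listed in both, and these are the genes described here. The first table holds 2221 genes in 8 cell lines and the second 5383 genes in 3 other lines, so the shared genes were 35.1% of the first and 14.5% of the second. Each shared gene was given 2 directions. The first was the mean log2 level in KALS-1, LN-18 and T98G minus that in KNS-42, LN-229, SNU-1105, U-138MG and U-87MG. The second was the level in SNU-466 minus the mean of A-172 and AM-38. A gene was concordant where both differences had the same sign and discordant where they had opposite signs. No library enters both differences.

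All 11 lines are established human glioblastoma lines, untreated, each with 2 libraries of poly(A) RNA. RPMI was the medium of SNU-466, SNU-1105 and KALS-1, EMEM that of U-87MG, U-138MG, T98G and AM-38, and DMEM that of LN-229, LN-18, KNS-42 and A-172. Serum was at 10%, or at 20% in AM-38. SNU-466 was thus grown in another medium than A-172 and AM-38, and line and medium cannot be told apart in that comparison. The labels do not say if both libraries of 1 line are from different cultures, so p-values over libraries measure a spread that may be technical.

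Glioblastoma lines are grouped by programmes named after the cells they resemble, from neural progenitor and glial programmes to mesenchymal ones rich in matrix genes. Keratins 8 and 18 are the paired intermediate filament proteins of simple epithelia, seen in some glioma lines in culture. Interferon-stimulated genes are a shared antiviral set switched on by the ISGF3 factor, and cytokines such as IL1A, LIF and the CXCL chemokines are targets of NF-kB signalling.

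Library totals, recovered from the deposited reads, lengths and FPKM, ran from 17.1 to 21.0 M reads (M, 1e6) in the first table and from 17.0 to 21.2 M in the second. Levels below are counts per M reads of these totals (CPM), differences are on the log2(CPM + 0.5) scale, and a difference understates the change of genes near 0. Where a library had 0 reads, up to 3 reads (0.141 to 0.177 CPM) cannot be told from none, a limit that covers counting error only. The 2 libraries of T98G stood further apart than those of any other line (chi-square 219 per gene, against 2.36 to 61.1), and results without either of them are within the ranges given for left-out libraries. The sources used here do not say how the genes of either table were chosen. Differences of at least 1 were found in 67.5% of the first table for its split and in 84.6% of the second for SNU-466, and in 79.5% and 92.8% of the shared genes. The size of a difference is therefore a description, and only how the directions combine is reported as a result. Of 22 glial markers, 2 were listed in the first table and 15 in the second, so the glial label of the lines was not checked with the genes of 1 table alone.

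SNU-466 fell more often on the side opposite to KALS-1, LN-18 and T98G than on theirs. Of the 779 shared genes, 331 (42.5%) were concordant and 448 (57.5%) discordant. The 74 genes higher on both sides of the comparison were the smallest class, beside 183 higher in KALS-1, LN-18 and T98G but lower in SNU-466, 265 lower in the 3 lines but higher in SNU-466, and 257 lower in both. Among the 257 genes higher in the 3 lines, 28.8% were higher in SNU-466, against 43.5% of all shared genes. Among the 522 genes lower in the 3 lines the share was 50.8%. Genes are not independent replicates, and these shares carry no test.

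**Figure D1:**
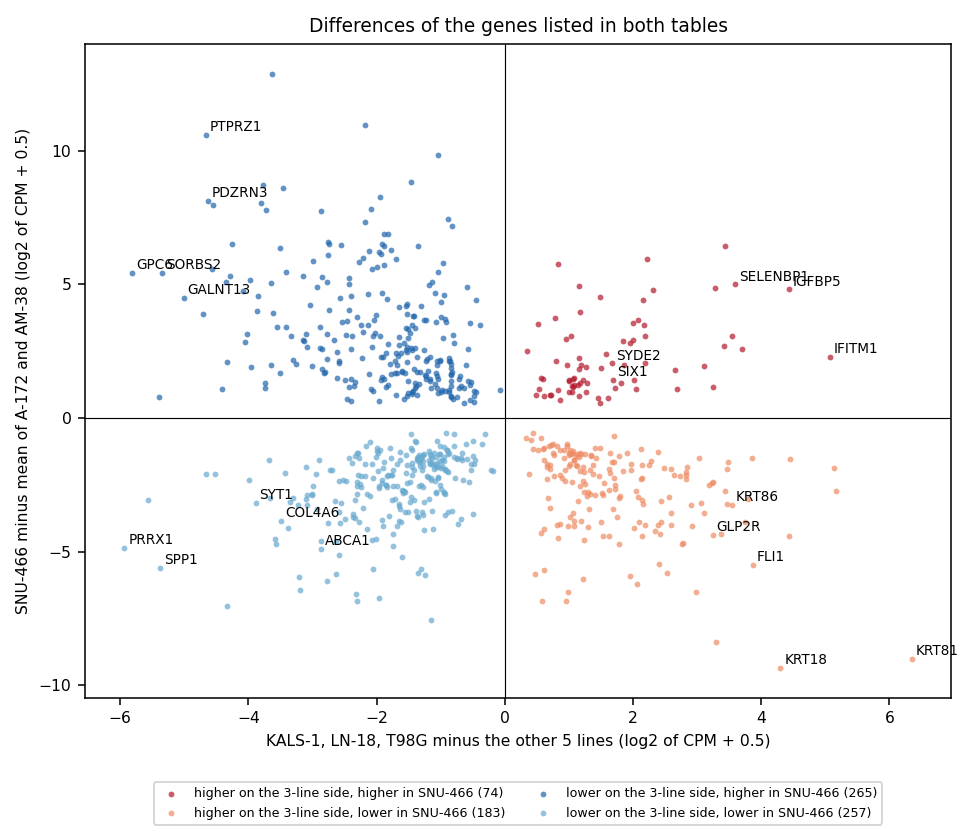
Each point is 1 of the 779 shared genes. The horizontal axis is the mean log2(CPM + 0.5) in KALS-1, LN-18 and T98G minus that in the other 5 lines, the vertical axis is SNU-466 minus the mean of A-172 and AM-38, and colours mark the 4 classes. The upper left holds 265 genes and the upper right 74.

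The share of concordant genes was lower among genes with differences of at least 2 than among all. It was 42.5% of all shared genes, 43.0% of the 593 genes with both differences at least 1, 37.7% of 215 genes at 2, 31.3% of 64 genes at 3, and 22.2% of 18 genes at 4. Of those last 18 genes, 4 were concordant (IGFBP5, SPP1, PRRX1 and DNER), 11 were lower in the 3 lines and higher in SNU-466, and 3 were the reverse (KRT81, KRT18 and TNFRSF11B). The libraries of the compared sides did not overlap in 109 shared genes in the first table, 46 higher and 63 lower on the 3-line side (13.0% of all genes listed there, 6.26% higher and 6.75% lower). In the second table they did not overlap in 742 shared genes, 339 higher and 403 lower in SNU-466 (95.9% of all genes listed there, 45.8% higher and 50.1% lower). Both held in 104 genes, and 32 of these (30.8%) were concordant. In that group 11 genes were higher in both, 31 higher in the 3 lines only, 41 higher in SNU-466 only and 21 lower in both. Across genes the differences had a Pearson correlation of −0.28 and a Spearman correlation of −0.23 (n = 779 genes, which share libraries and a scale per table).

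The balance varied between subsets of the lines. Splits within a medium each use different lines, so medium and line cannot be told apart there. Within DMEM, LN-18 against KNS-42 and LN-229 gave 38.5% concordant genes. Within EMEM, T98G against U-138MG and U-87MG gave 47.0%, and within RPMI, KALS-1 against SNU-1105 gave 44.6%. KALS-1 alone against the 5 lines gave 46.1%, LN-18 alone 43.2% and T98G alone 45.2%. All of these were below the discordant share of the same genes. Scaling by TMM or RLE moved the median first difference of the shared genes by 0.53 and the median second difference by −0.36 or −0.50. The sign of the first difference changed in 7 genes and that of the second in 0, and 42.1% of genes were concordant under either scaling.

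The number of genes that separated the sides with lines as replicates depended on the tool. With counts summed per line and the edgeR quasi-likelihood test of 3 lines against 5, 19 of 1686 tested genes of the first table passed 0.05 after Benjamini-Hochberg adjustment with a log2 fold change of at least 1, 14 higher and 5 lower on the 3-line side (0.83% and 0.297%; 1.13% in all), and 755 had an unadjusted p under 0.05. Of 636 shared genes tested, 6 were called higher and 4 lower. DESeq2 on the same summed counts called 324 higher and 695 lower of the 1686 genes, 107 and 292 of them shared, so both the number and the more frequent direction differed between the tools. TMM scaling called 21 higher and 6 lower, and RLE scaling 22 and 6. These numbers depended on single lines: leaving out KALS-1 gave 3 higher and 2 lower, and leaving out any other line gave 0 of both (edgeR). Single libraries moved them too. Without the first library of U-87MG the test called 0 higher and 1 lower, without the first or second of SNU-1105 3 higher and 3 or 2 lower, without KALS-1 replicate 1 or LN-18 replicate 2 4 higher and 2 lower, and without T98G replicate 1 6 higher and 2 lower. In the second table, where the only replicates are libraries, 78.1% of 5035 tested genes were called (32.3% higher and 45.8% lower in SNU-466 than in both A-172 and AM-38), and among 752 shared genes tested 277 were called higher and 363 lower.

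The 10 shared genes called in the first table were KRT81, EEF1A2, GLP2R, KCNJ12, NOG and ENSG00000276850, all higher in KALS-1, LN-18 and T98G, and GPC6, SORBS2, STXBP6 and RFTN2, all lower (edgeR adjusted p from 0.039 to 0.049). All but EEF1A2 were also called in the second table, and of these 9 genes only KCNJ12 went the same way in both. EEF1A2, a muscle and neuron form of a translation elongation factor, stood at 37.2 to 263 CPM in the 3 lines and 1.22 to 10.2 CPM in the 5. Its level was 1.36 and 1.07 CPM in SNU-466, between A-172 (205 and 187 CPM) and AM-38 (0.141 and 0.151 CPM). KCNJ12, an inward rectifier potassium channel, had 0.292 to 2.86 CPM in the 3 lines, 0 to 0.1 CPM in the 5 and 2.36 and 1.83 CPM in SNU-466, all low levels. In A-172 and AM-38 it lay between 0.41 and 0.853 CPM.

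Genes lower in KALS-1, LN-18 and T98G and higher in SNU-466 formed the largest class and held several genes of neural and matrix programmes. GPC6 (chromosome 13, 93226842 to 94407401, GRCh38) encodes a glypican, a cell surface heparan sulfate proteoglycan. It ranged from 0.817 to 2.54 CPM in the 6 libraries of the 3 lines (median 1.09) and from 45.0 to 204 CPM in the 10 of the other lines (median 105). It was 290 and 267 CPM in SNU-466, above both groups, and 5.17 to 7.54 CPM in A-172 and AM-38. None of these sides overlapped. The log2 fold change between sides of the first table was −6.37 with an SE of 0.883 (edgeR, adjusted p = 0.039). SNU-466 was higher than A-172 by 5.72 and than AM-38 by 5.32 on the log2 scale (edgeR, adjusted p = 9.92e-70).

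SORBS2, an adaptor of the actin cytoskeleton, followed the same order. Its level was 0.292 to 2.98 CPM in the 3 lines (median 0.597) and 23.7 to 134 CPM in the 5 (median 60.9). SNU-466 had 585 and 575 CPM, A-172 3.28 and 3.87 CPM, and AM-38 42.1 and 46.4 CPM. AM-38 thus sat inside the range of the 5 lines, and A-172 just above that of the 3.

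PTPRZ1, a receptor tyrosine phosphatase of neural progenitors and glia, was near 0 in KALS-1, LN-18 and T98G, at most 0.159 CPM. The 5 lines were split, with 119 to 416 CPM in KNS-42 and LN-229, 6.15 and 22.7 CPM in SNU-1105, and 0.302 to 1.12 CPM in U-138MG and U-87MG. SNU-466 had 857 and 854 CPM, with 31302 reads against 5 reads in the 4 libraries of A-172 and AM-38 together. On this gene SNU-466 was like KNS-42 and LN-229, and unlike U-138MG and U-87MG. The ubiquitin ligase gene PDZRN3 was even across the 5 lines (40.8 to 84.0 CPM) and lower in the 3 (0.661 to 12.2 CPM, the highest in T98G). It had 142 and 139 CPM in SNU-466 and 1 read in the 4 libraries of the other 2 lines.

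GALNT13, which starts O-glycan chains, had 0 to 0.356 CPM in the 3 lines, 6.05 to 58.8 CPM in the 5, 28.1 and 26.7 CPM in SNU-466 and 0.402 to 1.13 CPM in A-172 and AM-38. For STXBP6, a SNARE-binding protein, the ranges were 0 to 0.233 CPM and 2.5 to 22 CPM, with 91.0 and 85.0 CPM in SNU-466. A-172 stood at 9.94 and 10.2 CPM for STXBP6 and AM-38 at 0.236 and 0.0502 CPM, so A-172 was inside the range of the 5 lines and AM-38 near the 3. RFTN2, a lipid raft protein, had at most 0.522 CPM in the 3 lines, at least 6.29 CPM in the 5, and 30.8 and 29.1 CPM in SNU-466. NFATC2, a calcineurin-dependent transcription factor, had 230 and 225 CPM in SNU-466. Its high level among the 5 lines came from LN-229 (896 and 556 CPM), since the other 4 lines had 3.30 to 16.4 CPM.

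Genes higher in KALS-1, LN-18 and T98G but low in SNU-466 included the keratin genes KRT80, KRT81, KRT86, KRT8 and KRT18. Not all shared keratin genes went this way, as KRT17 was higher in both and KRT14 was lower in the 3 lines and higher in SNU-466. KRT81 (chromosome 12, 52285913 to 52291534), a hair keratin, had 577 and 569 CPM in KALS-1, 106 and 105 CPM in LN-18 and 50.8 and 18.1 CPM in T98G. The 5 lines had 0.151 to 3.91 CPM. SNU-466, at 0.472 and 0.407 CPM, lay within the range of the 5, while A-172 (141 and 143 CPM) and AM-38 (1678 and 1652 CPM) lay with or above the 3. The side difference was 7.40 with an SE of 1.29 on the log2 scale (edgeR, adjusted p = 0.045). KRT81 and KRT86 overlap in the annotation and are close copies, so how reads were divided between them is uncertain. KRT86 had 2.63 to 14.4 CPM in the 3 lines, 0 to 1.07 CPM in the 5 and 0.413 and 0.56 CPM in SNU-466.

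Both shared members of the simple epithelium list, KRT8 and KRT18, were discordant in this direction. KRT18 ran from 53.5 to 214 CPM in the 3 lines (median 180) and from 0.252 to 52.5 CPM in the 5 (median 21.8). A-172 had 1007 and 960 CPM, AM-38 230 and 212 CPM, and SNU-466 0.177 and 0.255 CPM. SNU-466 and AM-38 differed by 9.94 and SNU-466 and A-172 by 12.1 on the log2 scale, SNU-466 being lower (edgeR, adjusted p = 1.63e-76). KRT8, its partner, had 0.236 and 0.356 CPM in SNU-466 beside 990 and 958 (A-172) or 73.9 and 68.5 CPM (AM-38). The annotated spans of KRT8 and KRT18 overlap, so some reads may be shared. Among the 8 lines of the first table U-138MG and U-87MG had the lowest KRT18 (0.252 to 0.39 CPM), and these were the lines nearest to SNU-466 on that gene. KRT8 overlapped between sides, with 13.0 to 155 CPM in the 3 lines and 0.499 to 18.3 CPM in the 5.

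FLI1, an ETS transcription factor, had 17.3 to 23.0 CPM in all 6 libraries of KALS-1, LN-18 and T98G. SNU-1105 was close to them with 16.5 and 16.3 CPM, and the other 4 lines had 0 to 0.66 CPM. A-172 (15.0 and 14.8 CPM) and AM-38 (77.3 and 82.5 CPM) expressed it, and SNU-466 had 0.177 and 0.407 CPM. MAP3K14, the kinase of the non-canonical NF-kB pathway, had 39.4 to 107 CPM in the 3 lines, 5.27 to 28.7 CPM in the 5 and 10.6 and 10.3 CPM in SNU-466. In A-172 and AM-38 it lay between 73.9 and 112 CPM, inside or above the range of the 3 lines. IL15RA, the alpha chain of the IL15 receptor, had 5.14 to 14.4 CPM in the 3 lines, 6.88 to 15.4 CPM in A-172 and AM-38, 0.2 to 4.04 CPM in the 5 and 0.236 and 0.204 CPM in SNU-466.

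**Figure D2:**
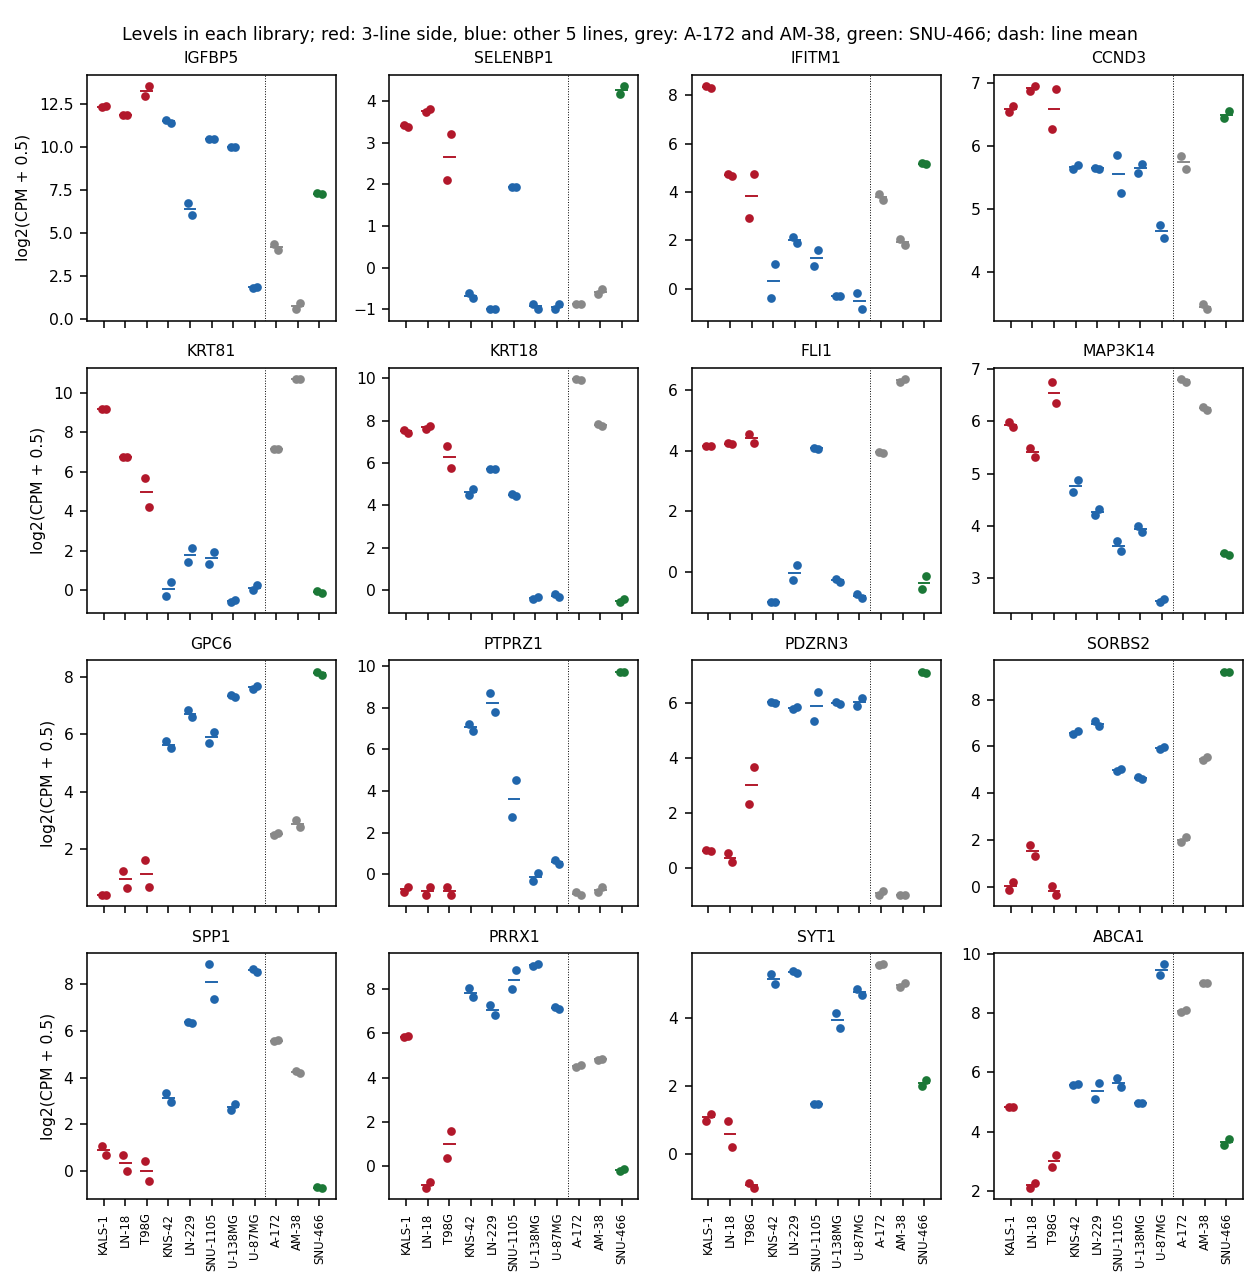
Levels as log2(CPM + 0.5) in all 22 libraries for 4 genes of each class, with 1 dot per library and a dash at the line mean. In each panel the dotted line separates the tables. KRT81, KRT18 and MAP3K14 are at their lowest or near it in SNU-466, and GPC6, PTPRZ1, PDZRN3 and SORBS2 at their highest.

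Few genes higher in both met the rule for naming, which asks for no overlap in either table and at least 10 CPM. IGFBP5 (chromosome 2, 216672105 to 216695525), a secreted binding protein of insulin-like growth factors, had 3649 to 11818 CPM in the 3 lines (median 5108) and 3.07 to 3002 CPM in the 5 (median 1017). SNU-466 had 157 and 153 CPM, above A-172 (20.3 and 15.8 CPM) and AM-38 (0.99 and 1.41 CPM). Its level in SNU-466 was still far under all 6 libraries of KALS-1, LN-18 and T98G and under the median of the 5 lines, so the shared direction was not a shared level. SELENBP1, a selenium-binding protein, was in SNU-466 above both sides, with 3.82 to 13.5 CPM in the 3 lines, 0 to 3.35 CPM in the 5 (the highest in SNU-1105), 17.6 and 20.2 CPM in SNU-466, and at most 0.201 CPM in A-172 and AM-38.

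CCND3, a D-type cyclin, was also alike, at 76.2 to 123 CPM in the 3 lines and 86.1 and 93.5 CPM in SNU-466. The 5 lines had 22.8 to 57.3 CPM, A-172 56.7 and 49.2 CPM and AM-38 10.7 and 10.0 CPM. ATP7A, a copper transporter, had 44.9 to 107 CPM in the 3 lines, 16.5 to 41.6 CPM in the 5, and 54.4 and 52.0 CPM in SNU-466. CCND3 and ATP7A were not called in the second table, since SNU-466 exceeded A-172 by only 0.76 and 0.98 on the log2 scale. SYDE2, a GTPase activator, was called there. It had 14.2 and 13.6 CPM in SNU-466 and 9.21 to 14.1 CPM in the 3 lines, against 1.22 to 6.55 CPM in the 5 and 2.36 to 3.48 CPM in A-172 and AM-38.

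The interferon response was the only list of more than 2 shared genes whose shared members were all higher in both. Of 30 listed genes 19 were in the first table, 8 in the second and 7 in both (IFI6, ISG15, OAS2, XAF1, IFIT3, ISG20 and USP18). Their median differences were 2.01 and 1.83, against −1.12 and −1.30 for all shared genes. In the first table the sides overlapped for all 7, with adjusted p from 0.0865 to 0.136 (edgeR), and KALS-1 was far above LN-18 and T98G for IFI6, ISG15, OAS2, IFIT3 and USP18. In the second, all 7 were higher in both SNU-466 libraries than in any library of A-172 and AM-38, 2 (IFI6 and XAF1) were called, and for the other 5 the smaller fold did not reach 1 on the log2 scale. Over all shared genes, 339 of 779 were higher in SNU-466 without overlap, and 277 of 752 tested were called higher. Without KALS-1, 4 of the 7 were concordant and the median first difference was 0.97.

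IFI6, an interferon-inducible mitochondrial protein, had 1310 and 1318 CPM in KALS-1 but 9.81 to 16.9 CPM in LN-18 and T98G, inside the 6.59 to 27.2 CPM of the 5 lines. Without KALS-1 its side difference turned from 2.15 to −0.024. SNU-466 had 193 and 204 CPM, A-172 26.8 and 23.6 CPM and AM-38 3.35 and 2.51 CPM (edgeR, adjusted p = 8.89e-55). ISG15, a ubiquitin-like modifier, had 293 CPM in both libraries of KALS-1, 10.3 to 18.8 CPM in LN-18 and T98G and 1.84 to 11.3 CPM in the 5 lines. Its level in SNU-466, 36.1 and 39.4 CPM, lay between KALS-1 and all other lines.

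XAF1, an interferon-inducible binding partner of XIAP, had another pattern, low in KALS-1. KALS-1 had 0.175 and 0.408 CPM, LN-18 3.87 and 5.24 CPM, T98G 13.3 and 7.36 CPM, and the 5 lines 0 to 0.952 CPM. SNU-466 had 6.84 and 7.44 CPM, inside the range of LN-18 and T98G, and A-172 and AM-38 at most 0.359 CPM. For the 5 genes highest in KALS-1 the medium moved with the level, as KALS-1 and SNU-466 were both grown in RPMI. SNU-1105, also in RPMI, had ISG15 at 11.3 CPM in both libraries and IFI6 at 20.0 and 27.2 CPM. These values reached the upper end of the ranges of the 5 lines and were below those of KALS-1 and SNU-466. The part of the medium was not tested.

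IFITM1, IFITM2 and IFITM3, adjacent genes of chromosome 11 whose products limit virus entry, were also higher in both. IFITM2 and IFITM3 were picked out after their values were seen, and reads of these near-identical copies may have been divided between them. IFITM1 had 7.05 to 335 CPM in the 3 lines, 0.0499 to 3.86 CPM in the 5, 35.7 and 34.9 CPM in SNU-466 and 3.01 to 14.7 CPM in A-172 and AM-38. IFITM3 had its highest level among the 11 lines in SNU-466 (606 and 621 CPM).

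**Figure D3:**
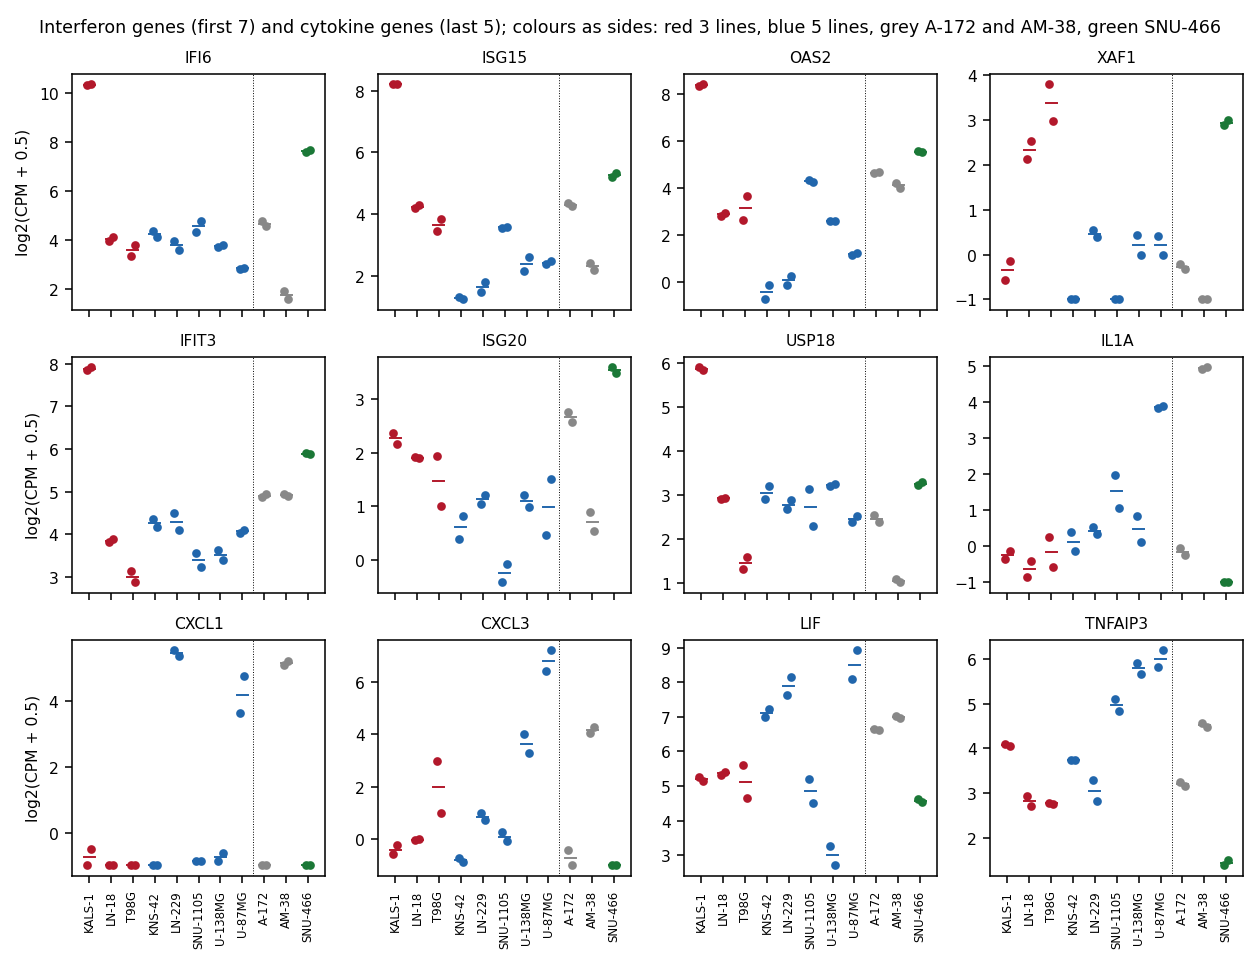
Levels as log2(CPM + 0.5) in each library for the 7 shared interferon genes and 5 of the cytokine genes, with a dash at the line mean and a dotted line between the tables. KALS-1 is apart from LN-18 and T98G for IFI6, ISG15, OAS2, IFIT3 and USP18, and CXCL1 is near 0 in all but LN-229, U-87MG and AM-38.

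Promoter sequences are shown for the 3 of the 7 listed interferon genes with more than 1 match to the interferon-stimulated response element, the site bound by ISGF3. They are the 250 bases before the RefSeq gene start (build GRCh38.p14), 5′ to 3′ on the gene's strand, in lower case with each match to GAAANNGAAA or, on the other strand, TTTCNNTTTC in capitals. IFI6 lies at chr1:27672193-27672442 (minus strand), ISG15 at chr1:1013247-1013496 (plus strand) and IFIT3 at chr10:89327747-89327996 (plus strand).
IFI6: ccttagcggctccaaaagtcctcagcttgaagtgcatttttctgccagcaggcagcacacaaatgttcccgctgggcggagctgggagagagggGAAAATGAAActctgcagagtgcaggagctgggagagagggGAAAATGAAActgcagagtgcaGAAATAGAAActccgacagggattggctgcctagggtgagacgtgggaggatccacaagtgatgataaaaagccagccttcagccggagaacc
ISG15: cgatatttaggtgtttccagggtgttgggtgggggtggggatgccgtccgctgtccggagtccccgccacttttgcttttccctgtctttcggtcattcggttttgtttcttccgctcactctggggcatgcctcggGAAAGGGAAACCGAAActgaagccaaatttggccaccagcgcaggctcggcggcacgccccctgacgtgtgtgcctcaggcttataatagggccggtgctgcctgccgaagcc
IFIT3: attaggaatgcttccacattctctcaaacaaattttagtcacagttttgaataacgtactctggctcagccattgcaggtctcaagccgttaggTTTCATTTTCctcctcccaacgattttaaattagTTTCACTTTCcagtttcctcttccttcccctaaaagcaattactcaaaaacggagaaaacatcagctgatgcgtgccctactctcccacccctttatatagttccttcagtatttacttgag
IFI6 held 3 matches and IFIT3 2, and the 2 matches of ISG15 overlap in 1 stretch. ISG20 held 1 match and XAF1 0, and OAS2 and USP18 had no entry. Of the IFITM genes, which are not on the list, IFITM3 held 2 matches and IFITM1 1. Of the 27305 promoters listed by RefSeq, 839 (3.07%) held a match. The motif was chosen after the expression values were seen, and a match is a description of the letters only. Promoters were found for 518 of the 779 shared genes (66.5%), under 80%, so a comparison of promoters between the classes is void.

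Most shared cytokine genes were in the other concordant class. Of 29 listed genes 6 were shared, and IL1A, CXCL1, CXCL3, LIF and TNFAIP3 were lower in both. Over all shared genes 257 of 779 were in this class. The median differences of the 6 genes were −1.54 and −2.90, against −1.12 and −1.30 for all shared genes, and without U-87MG the first was −0.74. In SNU-466 there were 0 reads of IL1A, CXCL1 and CXCL3. AM-38 had 30.5 ± 0.632 CPM (SD, n = 2) of IL1A, 33.8 and 37.0 CPM of CXCL1, and 15.9 and 18.7 CPM of CXCL3. A-172 was near 0 for IL1A and CXCL3 and at 0 for CXCL1, so AM-38 made most of the second difference of these genes. CXCL1 was not called. LIF, a cytokine of the IL6 family, had 24.1 and 22.8 CPM in SNU-466 and 98.3 to 129 CPM in the other 2 lines (edgeR, adjusted p = 1.28e-43).

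In the first table the cytokine genes did not separate the sides. CXCL1 was high in LN-229 (46.4 and 41.6 CPM) and U-87MG (12 and 26.8 CPM) and at most 0.204 CPM in the other 6 lines. CXCL3 reached 84.1 and 146 CPM in U-87MG, and T98G of the 3-line side had 7.42 and 1.52 CPM. TNFAIP3, the feedback inhibitor of NF-kB signalling, had 6.06 to 16.5 CPM in the 3 lines and 6.55 to 72.3 CPM in the 5, with 2.12 and 2.34 CPM in SNU-466. The sixth gene, TNFRSF11B, a decoy receptor, was discordant, with 490 and 1154 CPM in T98G, 134 and 125 CPM in LN-18, at most 0.306 CPM in KALS-1, and 0.118 CPM and 0 reads in SNU-466.

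Lower in both, without overlap in either table, were also SPP1, PRRX1, COL4A6, SYT1, ABCA1, SCN2A, GEM and OSBP2. SPP1 (chromosome 4, 87975650 to 87983426), which encodes the secreted phosphoprotein osteopontin, had 0.234 to 1.58 CPM in the 3 lines and 5.59 to 460 CPM in the 5 (median 82.2). SNU-466 had 0.118 and 0.102 CPM, A-172 46.6 and 47.7 CPM, and AM-38 19.0 and 17.9 CPM. PRRX1, a mesenchymal homeobox factor, had 113 to 560 CPM in the 5 lines. Within the 3-line side it was 56.2 and 59.0 CPM in KALS-1 and at most 2.51 CPM in LN-18 and T98G, and SNU-466 (0.354 and 0.407 CPM) was like the latter. ABCA1, the cholesterol exporter, had 11.3 and 12.8 CPM in SNU-466, inside the 3.76 to 28.0 CPM of the 3 lines and under the 30.5 to 803 CPM of the 5. A-172 and AM-38 had 263 to 525 CPM.

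SYT1, a synaptic vesicle protein and the only shared gene of 12 neuron markers, had 0 to 1.79 CPM in the 3 lines, 3.48 and 4.02 CPM in SNU-466 and 29.6 to 47.5 CPM in A-172 and AM-38. SNU-1105, at 2.29 and 2.3 CPM, was nearest to SNU-466 among the 5 lines, where the others had 12.7 to 41.5 CPM. In OSBP2, an oxysterol-binding protein, SNU-466 (2.18 and 2.09 CPM) lay inside the 0.371 to 4.53 CPM of the 3 lines. GEM, a small GTPase, barely separated the sides, at 5.65 to 14.7 CPM and 14.8 to 190 CPM. COL4A6 and SCN2A were low in SNU-466, A-172 and the 3 lines, at most 2.29 CPM, so AM-38 made most of their second difference.

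Matrix genes split between the classes. Of 37 listed genes 6 were in the first table, 27 in the second and 6 in both. FN1, COL11A1, LAMA4 and FBN1 were lower in the 3 lines and higher in SNU-466, all 4 called in the second table, and THBS2 was lower in both. Among all shared genes 265 of 779 were lower in the 3 lines and higher in SNU-466, and 226 of those 265 were called in the second table. COL11A1, a fibrillar collagen chain, had 7448 and 7313 CPM in SNU-466 and at most 0.666 CPM in A-172 and AM-38 (edgeR, adjusted p = 4.96e-102). Its highest level in the first table was 1189 CPM, in LN-229, and U-138MG and U-87MG (2.74 to 4.49 CPM) lay under KALS-1 (15.6 and 14.2 CPM). FN1, fibronectin, had 5064 and 4827 CPM in SNU-466 and 84.4 to 104 CPM in A-172 and AM-38. In the first table it ran from 333 to 2266 CPM in the 3 lines and from 148 to 15204 CPM in the 5, KNS-42 being the lowest. THBS2 rested on A-172 (324 and 327 CPM), since AM-38 (2.69 and 3.01 CPM) was below SNU-466 (3.36 and 3.56 CPM), and the gene was not called (edgeR, adjusted p = 0.126).

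Among 62 genes of Wnt, BMP and TGF-beta signalling, 9 were shared and 6 of these were lower in the 3 lines and higher in SNU-466. They included the BMP antagonist GREM1, the ligand BMP6, the Wnt antagonist SFRP2 and the receptors FZD1 and FZD8, and of these 5 all but FZD1 were called higher in SNU-466, shares to be read beside the 265 of 779 and 226 of 265 over all shared genes. BMP6 had 0.102 to 1.2 CPM in the 3 lines, 1.78 to 53.7 CPM in the 5, 27.7 and 26.7 CPM in SNU-466 and 0.595 to 6.17 CPM in A-172 and AM-38. GREM1 was high in KNS-42 (1871 and 1635 CPM) and U-87MG (298 and 337 CPM) and at most 0.355 CPM in the other 6 lines, so its 1.89 and 1.88 CPM in SNU-466 exceeded A-172 and AM-38 at a low level.

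NOG, another BMP antagonist, went the other way. It had 0.935 to 3.55 CPM in the 3 lines and 0 to 0.356 CPM in the 5, a log2 fold change of 4.08 with an SE of 0.791 (edgeR, adjusted p = 0.049). A-172 had 90.6 and 90.2 CPM and AM-38 14.9 and 13.7 CPM. SNU-466 had 0 reads, so the mean of the other 2 lines was at least 639-fold higher, against a floor of 3 reads over both SNU-466 libraries. INHBB, an activin subunit, was higher in both, with 59.1 and 57.3 CPM in SNU-466, at most 13.5 CPM in LN-18 and T98G and 0 reads in KALS-1. WNT7B was lower in both, with 0 reads in SNU-466, and was not called.

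Other lists held few shared genes. Both shared neural progenitor genes, FABP7 and MYCN, and the shared glial marker NGFR were lower in the 3 lines and higher in SNU-466. NGFR, the low-affinity neurotrophin receptor, had 1528 and 1610 CPM in SNU-466, 153 to 201 CPM in LN-229 and SNU-1105 and at most 3.10 CPM in the other 6 lines of the first table. FABP7 had 1.71 and 1.17 CPM and MYCN 0.943 and 0.968 CPM in SNU-466, low levels, far under LN-229 and KNS-42. Of 5 shared NRF2 targets, NQO1 and OSGIN1 were higher in both and TXNRD1, AKR1C2 and SLC7A11 higher in the 3 lines but lower in SNU-466. The first direction leaned on T98G. Without it the median first difference of the 5 genes was 0.47, against 1.72 with it, and 1 of them was concordant. SLC7A11, the cystine transporter, had 8.49 and 8.91 CPM in SNU-466, below every other line, the next being KALS-1 (28.5 and 32.6 CPM).

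Of 7 shared axon guidance genes, 3 were lower in the 3 lines and higher in SNU-466 (SEMA5A, SEMA6A and PLXNA4), 3 lower in both (DCC, NRP1 and NTNG1) and 1, UNC5A, the reverse. NRP1, a receptor of semaphorins and VEGF, had 64.1 to 182 CPM in the 3 lines and 102 CPM in both libraries of SNU-466, against 221 to 839 CPM in the 5 lines and 277 to 746 CPM in A-172 and AM-38. Cell adhesion genes were divided alike, with ITGA9, CHL1 and NRCAM in the first of these classes and ITGA3, ITGA10 and CDH18 lower in both. ITGA3, the integrin alpha chain of laminin receptors, had 180 and 181 CPM in SNU-466 and 2616 to 4278 CPM in A-172 and AM-38. The mesenchymal factors took 3 classes, ZEB2 being higher in SNU-466 (538 and 529 CPM, above all other lines), PRRX1 lower in both and FOXF1 lower in SNU-466 only.

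Few markers of other cell types were shared. Of 13 immune markers 3 were shared, and in SNU-466 they had at most 0.153 CPM. PTPRC reached 6.02 CPM in KALS-1, ITGAM 3.12 CPM in A-172 and CSF1R 26.2 CPM in SNU-1105. None of the endothelial, fibroblast and pericyte, hypoxia, YAP or p53 list genes was listed in both tables. Of families taken by symbol, 15 solute carrier genes held 0 higher in both, 6 higher in the 3 lines only, 4 higher in SNU-466 only and 5 lower in both. Among 28 intergenic lncRNAs the counts were 2, 9, 6 and 11, and among 10 potassium channel genes 3, 1, 3 and 3.

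Placed between the sides on the level scale, SNU-466 had a median position at the 5-line side, with a wide spread over genes. The position of a gene was set to 0 at the mean of the 5 lines and 1 at the mean of KALS-1, LN-18 and T98G. The median position over the 779 genes was 0.06 for SNU-466, 0.69 for A-172 and 0.53 for AM-38. The quartiles for SNU-466 were −0.51 and 1.14. SNU-466 was nearer to the 3 lines for 43.5% of the genes, A-172 for 58.2% and AM-38 for 51.3%. For SNU-466 this share was 29.2% of the 257 genes higher in the 3 lines and 50.6% of the 522 genes lower there. In A-172 these shares were 63.8% and 55.4%, and in AM-38 55.6% and 49.2%. For the 109 genes whose sides do not overlap in the first table (14.0% of the shared genes, 13.0% of the first table) SNU-466 was nearer to the 3 lines in 31.2%, and A-172 in 59.6%. These levels are set across separately deposited tables and have no test.

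**Figure D4:**
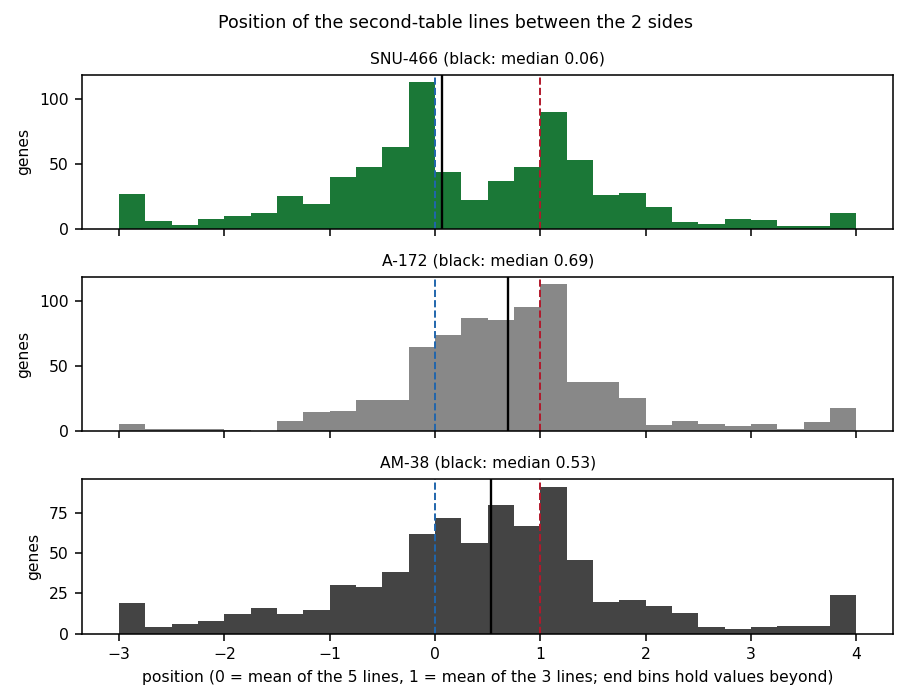
Histograms of the position of SNU-466, A-172 and AM-38 for the 779 shared genes (vertical axis, number of genes). The dashed lines at 0 and 1 are the means of the 5 and of the 3 lines, and a black line shows the median (0.06, 0.69 and 0.53). For SNU-466 the bars are highest at the dashed lines and low between them.

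Across the shared genes, the level in SNU-466 had a Spearman correlation of 0.66 with the mean of the 5 lines and 0.47 with the mean of KALS-1, LN-18 and T98G (n = 779 genes). For A-172 the order was reversed, 0.55 and 0.74, and for AM-38 the values were closer, 0.51 and 0.56.

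The likeness of SNU-466 was to some of the 5 lines and not to others. With each line of the first table set against the mean of all 8, LN-229 had the sign of the SNU-466 difference in 69.3% of genes, SNU-1105 in 61.0% and KNS-42 in 59.9%. U-138MG (52.6%), KALS-1 (48.5%), T98G (47.9%), U-87MG (45.4%) and LN-18 (43.5%) followed. U-87MG thus ranked below 2 of the 3 lines on the other side. The Spearman correlation of levels with SNU-466 gave a similar order, from 0.73 for LN-229 to 0.38 for LN-18, with U-87MG (0.42) next to last. Examples picked from the same genes for this pattern, and no separate support for it, are PTPRZ1, COL11A1, CHL1 and NGFR, which were high in LN-229 and SNU-466 and low in U-87MG, and LIF, IL1A and CXCL3, which were at their highest in U-87MG among the 8 lines and low in SNU-466.

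**Figure D5:**
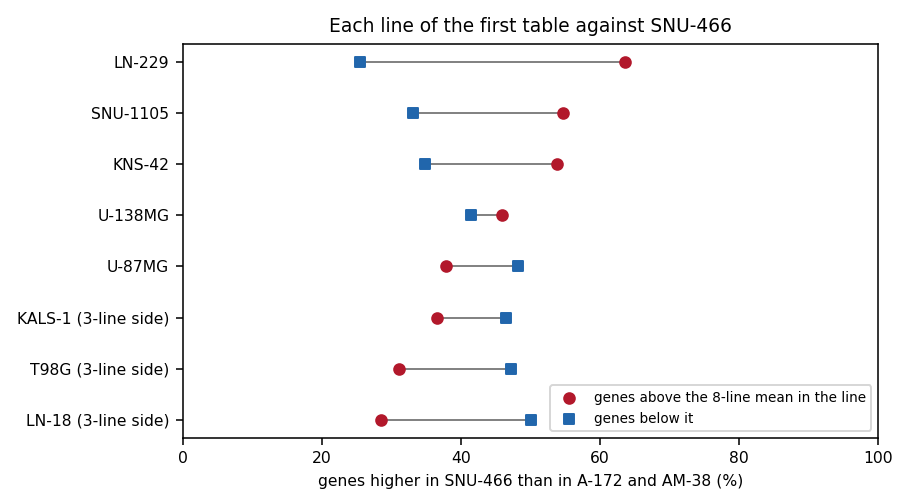
For each line of the first table, the percent of genes higher in SNU-466 than in A-172 and AM-38, among genes above the 8-line mean in that line (circles) and among genes below it (squares). LN-229 has 63.6% and 25.5%, and LN-18 has 28.5% and 50.0%.

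Shared genes that lay close together were often of the same class. Of 99 pairs with at most 100 kb between them, among 770 genes with coordinates, 79 (79.8%) were of the same class, beside 28.9% given by the class sizes alone. Some pairs overlap or are sense and antisense partners, such as ZEB2 and ZEB2-AS1 or SLC7A11 and SLC7A11-AS1. Examples picked out after their values were seen were DLX5 and DLX6 on chromosome 7, homeobox genes of forebrain interneurons, both lower in the 3 lines and higher in SNU-466 (DLX5 at 109 and 111 CPM, with 0 reads in A-172 and AM-38), and PSG4, PSG5 and PSG9 on chromosome 19, pregnancy-specific glycoproteins with near-identical copies, all higher in the 3 lines and lower in SNU-466. The chromosomes below were also picked out after the counts of all chromosomes and classes were seen. Neighbouring genes of the same class are each counted in them. The class lower in the 3 lines and higher in SNU-466 took 27 of 43 shared genes on chromosome 7 and 22 of 40 on chromosome 3, against 265 of 779 in all. Genes lower in both took 40 of 78 on chromosome 2, and those higher in the 3 lines only took 20 of 41 on chromosome 19.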

How the data were processed

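Poly(A) RNA of 11 untreated glioblastoma cell lines was sequenced with strand kept, 2 libraries per line, per the labels' protocols. The authors deposited raw read counts, FPKM and gene lengths per library in 2 tables. The submitters' processing notes name StringTie 1.3.3, HTSeq 0.6.0, HISAT2 2.2.1, FastQC 0.10.1 and cutadapt 1.9.1 and the build hg38/GRCh38, with no role for each. No source used here names the annotation release.

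Each library total was computed as reads divided by length and FPKM over genes of at least 20 FPKM that also had 200 reads. The genes of a library gave totals within 0.0258% of each other, and at least 99.9% of FPKM were given back within 0.01. Listed genes held 5.81% to 10.2% of a library in the first table and 21.8% to 37.1% in the second. CPM are reads scaled to these totals, and a line's level is the mean log2(CPM + 0.5) of its 2 libraries. Symbols were found for 2220 genes of the first table and 5382 of the second. Gene coordinates come from GENCODE 29 (GRCh38).

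edgeR 4.0.16 quasi-likelihood tests used the counts with these totals and the filter filterByExpr over each whole table. The first compared 3 lines with 5, with counts summed per line. The second gave each line a coefficient and called a gene where SNU-466 differed from A-172 and AM-38 in the same direction, with the larger p Benjamini-Hochberg adjusted under 0.05 and both log2 fold changes at least 1. Both tests were tested on simulated data. TMM, RLE, limma 3.58.1, DESeq2 1.42.0, pseudocounts, filters and left-out libraries and lines were alternatives. The splits within a medium, by 1 line of the 3-line side and by replicate number were chosen after seeing the data.

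The members, the 33 gene lists and the tests were chosen with earlier results of these data known, and the listed genes appear chosen on both splits, so neither the calls nor the sizes of differences are independent evidence. Named genes are, per class, up to 8 without overlap in either table and with at least 10 CPM, ranked by the smaller difference, and up to 4 shared members per list. Other genes named were chosen after their values were seen. Some genes that meet the rule are not reported here.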

Additional observations from a re-analysis of the deposited data

Results flagged for a closer look

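Among the 5 lines of the other side, 1 line stood far from the rest on the log2 scale for 14 of the 101 named genes examined. Such a gap is expected by chance in about 1 in 20 groups, and the values below are the line's mean CPM beside the range of the other 4 lines.

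KNS-42 was apart for ITGA3 (239 CPM, others 1400 to 2040), STXBP6 (2.87 CPM, others 11.9 to 19.4), THBS2 (0.0515 CPM, others 65.5 to 428) and KCNH2 (1.05 CPM, others 0 to 0.144). LN-229 was apart for NFATC2 (726 CPM, others 3.86 to 14.8) and KCNN3 (63.5 CPM, others 3.31 to 6.18). SNU-1105 was apart for FLI1 (16.4 CPM, others 0 to 0.497), SELENBP1 (3.35 CPM, others 0 to 0.128), PLIN2 (0.985 CPM, others 0.0492 to 0.225) and INHBB (0.881 CPM, others 0 to 0.125). U-87MG was apart for ABCA1 (712 CPM, others 30.7 to 49.9) and CCND3 (24.5 CPM, others 47.4 to 49.9), and U-138MG for SCN2A (21.5 CPM, others 5.05 to 7.37) and TXNRD1 (159 CPM, others 409 to 514).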

How the results depend on the processing

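The share of concordant genes stayed under the discordant share in all settings tried. Pseudocounts, FPKM, TMM or RLE scaling and a 1 CPM minimum gave 42.1% to 43.2%, leaving out a library 42.5% to 42.6% and leaving out a line 42.1% to 44.5%. A 95% binomial interval over the 779 genes, 39.0% to 46.0%, served as a yardstick only. It treats genes as independent, which they are not, so it tests nothing. The share was outside it in genes whose groups do not overlap in either table (30.8%) and in the 9 genes called in both tables (11.1%). It was also outside within DMEM lines (38.5%), within EMEM lines (47.0%) and with KALS-1 alone (46.1%). Of genes high in KALS-1, LN-18 and T98G, 20.0% were high in SNU-466 among those called in both tables and 35.2% within EMEM lines. Of genes low in the 3 lines, 57.0% were high in SNU-466 at a minimum of 10 CPM, 66.1% without overlap and 100% when called in both tables. SNU-466 was nearer to the 3 lines in 31.2% of the genes without overlap in the first table.

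The number of shared genes called in the first table was the least stable result, at 6 higher and 4 lower in the edgeR fit of summed lines. TMM gave 21 and RLE 22 higher, limma 18 higher and 15 lower, and DESeq2 107 higher and 292 lower. Without a low-count filter edgeR called 0 higher and 0 lower, with 1104 genes of the table at an unadjusted p under 0.05. Treating the 16 libraries as replicates of their lines gave 202 higher and 406 lower, and the same fit with a replicate block 202 and 406. Replicate numbers do not pair the libraries (correlations of deviations from −0.135 to 0.0925 in the first table and −0.0453 to 0.079 in the second), and in the second table the replicate block gave 276 higher and 359 lower, beside 277 and 363. Leaving out a library gave 0 to 7 higher and 1 to 5 lower, and leaving out a line 0 to 3 higher and 0 to 2 lower. The cause of these differences was not tested.

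Among named genes 4 differences reversed. Without KALS-1 the first difference was −0.15 for PTPRC (1.06 with it, up to 1.66 without another line) and −0.024 for IFI6 (2.15 with it, up to 3.36). With A-172 alone the second difference of SLC6A15 was 0.010 (−2.99 with both lines), and with AM-38 alone that of THBS2 was 0.24 (−3.06). Depth limits the genes near 0: a floor of 3 reads is 0.141 to 0.177 CPM, and directions of genes below it in both groups rest on few reads.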
